A study of Nannochloropsis oceanica with 8 samples.

Results

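The regions described here are the 517 strong-Kbu peaks of *Nannochloropsis oceanica*, the peaks with the highest Kbu signal in cells grown at high CO2 among peaks under 1500 bp. They are 8.36% of the 6185 peaks in the deposited tables. A peak belongs to the set when it is narrower than 1500 bp and its Kbu pileup, the height of the stacked ChIP reads, reaches 5 times the genome background or more in each of the high-CO2 libraries. As genome background serves the smallest value of the control column that belongs to the library, and "level" below always means pileup divided by it. A further 81 peaks reach the same Kbu level but are 1500 bp or wider and are not included. High-CO2 Kbu values thus chose the peaks, and they are given as a description with no test.

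*N. oceanica* is a unicellular, oil-storing marine alga. All libraries came from strain IMET1 kept in buffered seawater medium under continuous light. All cultures first received 5% CO2 for 1 h, then 3 cultures were moved to 0.04% CO2 (low CO2) and 3 stayed at 5% CO2 (high CO2), and cells were collected at 24 h. The study asked how 2 histone modifications respond to the CO2 supply, and gave 4 groups of 2 ChIP-seq libraries: Kbu at low CO2, Kbu at high CO2, H3K9me2 at low CO2 and H3K9me2 at high CO2. The labels give the H3K9me2 antibody as Millipore 07-030, and the Kbu antibody by its target alone. Whether that catalogue number belongs to an H3K9me2 antibody was not checked here. Which culture gave which library is not in the labels, so p-values cover the spread from library to library, and this may be technical.

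Kbu is the usual abbreviation of lysine butyrylation, an acyl mark that enzymes place on histones with butyryl-CoA, an intermediate of fatty acid metabolism, as the donor. In the animals and plants where it has been studied, histone butyrylation is mostly found at active genes. H3K9me2, dimethylation of lysine 9 of histone H3, marks silent chromatin and repeats in many eukaryotes. The tables give positions and no gene names, so peaks are called by their number and by chromosome positions as deposited. The sources used here name no genome build for these positions.

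At the median strong-Kbu peak the pileup was worth 223 and 139 reads in the low-CO2 Kbu libraries and 1213 and 884 reads in the high-CO2 Kbu libraries. In the H3K9me2 libraries it was worth 74 and 41 reads at low CO2 and 55 and 30 reads at high CO2. Counting error at that peak was therefore 2.87% to 8.48% for Kbu but 11.6% to 18.3% for H3K9me2, so single-peak statements on H3K9me2 are the weaker ones. How deeply each library was sequenced is unknown, and these errors cover counting alone.

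Strong-Kbu peaks carried less Kbu at low CO2. They still stood above the genome background there, though at most of them not above the control at the peak, which was itself higher at low CO2. Their median level was 3.37 and 3.45 in the low-CO2 libraries, against 5.51 and 5.55 in the high-CO2 libraries, where the rule sets a floor of 5. The lowest peak of the set had 1.97 and 1.81 and the highest 7.40 and 6.83 at low CO2, against a range of 5.00 to 11.4 and 5.00 to 11.5 at high CO2. The medians of replicates lay close together on this scale. That closeness does not measure how far the gap between the CO2 levels depends on the scale. The median share of Kbu kept was 60.7% here and 86.1% with libraries scaled to equal geometric means. It was 66.6% on the authors' normalised value and 16.4% on the pileup over the control at the peak.

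**Figure D1:**
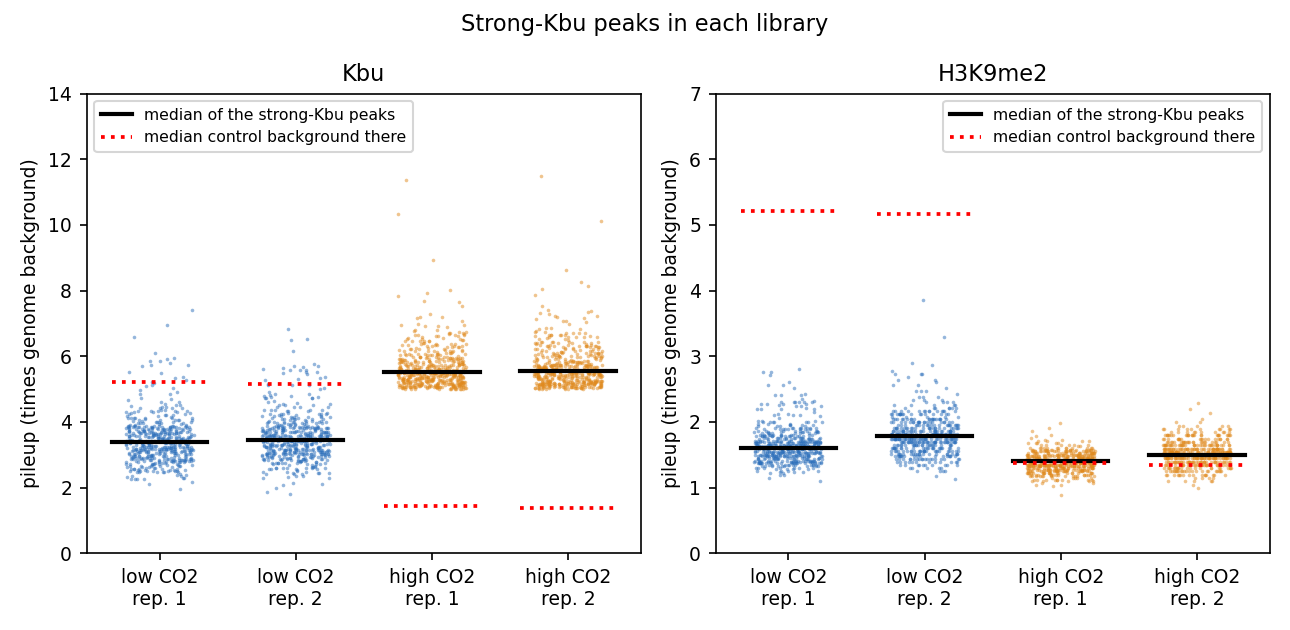
Pileup at each of the 517 strong-Kbu peaks (points, times genome background) in the 4 Kbu and 4 H3K9me2 libraries; black lines are the medians over these peaks and red dotted lines the median control background at the same peaks. Median Kbu was 3.37 and 3.45 at low CO2 and 5.51 and 5.55 at high CO2, while the control stood above the Kbu median at low CO2 and far below it at high CO2.

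At low CO2 the median peak kept 60.7% of its high-CO2 Kbu level (quartiles 54.7% and 67.0%). Taken from each low-CO2 library in turn the median was 59.6% and 60.9%. Both low-CO2 libraries lay below both high-CO2 libraries at 506 of the 517 peaks, against 88.9% of all peaks, and above both at 2 peaks, against 5.14% of all peaks. At the other 9 the groups overlapped. Since the peaks were chosen for high values at high CO2, these counts follow in part from the rule. When peaks were chosen by 1 high-CO2 library and the share kept was taken from the other, it was 61.1% and 61.5%. The 2 high-CO2 libraries correlated at 0.981 (Pearson) over all peaks, so this does not remove the effect of choosing peaks at high CO2.

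Set against the genome background, and not the control at the peak, nearly all of the set had Kbu signal at low CO2: 514 of the 517 peaks had a level of 2 or more in each library, 353 a level of 3 or more and 20 a level of 5 or more. Among the other peaks under 1500 bp, 3929 of 5417 reached 2, 808 reached 3 and 19 reached 5. A lower level can come from fewer cells carrying the mark or from less of it per cell, and ChIP of a whole culture cannot tell these apart. It can also come from the pull-down, which was not measured, or from the background that divides the pileup. That background was 11.6 and 11.3 in the low-CO2 Kbu libraries and 23.4 and 23.1 in the high-CO2 Kbu libraries. The part of each was not tested.

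**Figure D2:**
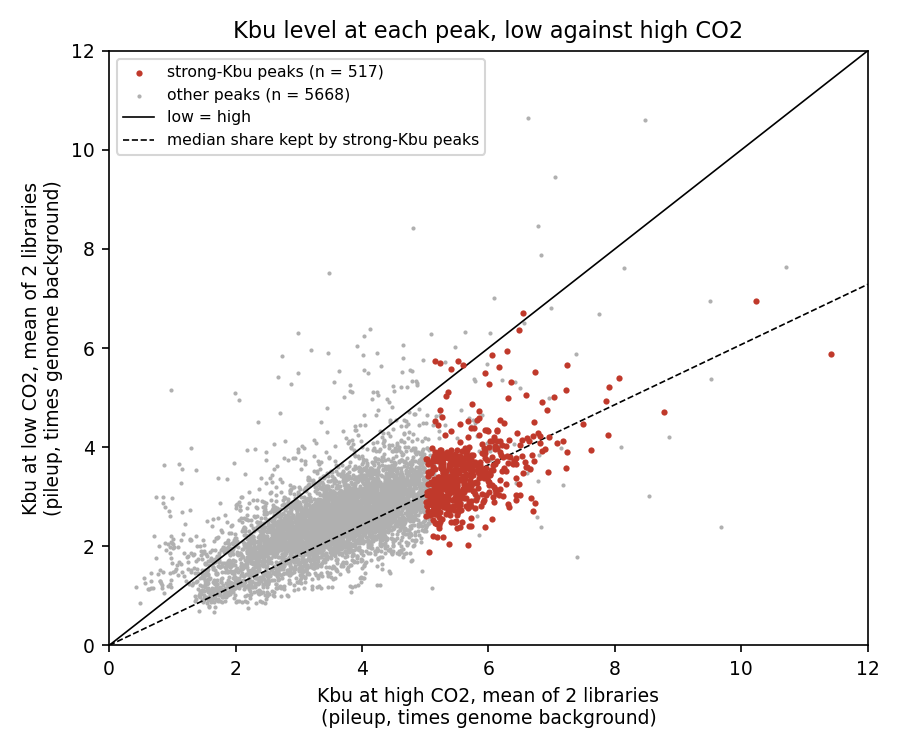
Mean Kbu level at low CO2 (vertical axis) against high CO2 (horizontal axis), both in times genome background, for the 517 strong-Kbu peaks (red) and the 5668 other peaks (grey). Most red points lie near the dashed line of the median share kept, 60.7%, and a few lie on or above the solid line of equal levels.

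Among peaks under 1500 bp the share of Kbu kept was lower in bins of higher Kbu at high CO2. The high-CO2 level is also the denominator of the share, so a fall over the bins is partly built in, and it is given as a description. The median share was 90.7% at the 442 peaks under 1500 bp that were below 2 times the background in at least 1 high-CO2 library. It was 78.5% at 2 to under 3 times, 70.5% at 3 to under 4 times and 64.7% at 4 to under 5 times, against the 60.7% of the strong-Kbu peaks. Within the set the medians of such bins lay between 57.5% and 61.2%, and the share kept and the high-CO2 level had almost no relation across peaks (Pearson -0.050). The order of levels was partly kept: across the 517 peaks the mean levels at low and high CO2 correlated at 0.499 (Pearson) and 0.413 (Spearman). The 2 low-CO2 libraries correlated with each other at 0.877 across these peaks, which are not independent replicates.

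The control background differed between the CO2 levels at these same peaks. Its median was 5.23 and 5.16 times its lowest value in the columns of the low-CO2 Kbu libraries, against 1.43 and 1.37 in those of the high-CO2 Kbu libraries. At the other peaks it was 3.42 and 3.38 at low CO2 and 1.32 and 1.26 at high CO2. Over all 6185 peaks the low-CO2 control correlated at 0.792 with the high-CO2 Kbu level, against 0.411 for the high-CO2 control. The Kbu pileup exceeded its own control in both libraries at 8 of the 517 peaks (1.55%) at low CO2, against 9.96% of all peaks. At high CO2 it did so at all 517, near the 98.7% of all peaks, and this count uses the values of the rule. Measured over the control at the peak, the strong-Kbu peaks stood at 0.670 ± 0.022 at low CO2 and 4.01 ± 0.15 at high CO2 (SD of the library medians, n = 2 each). On this scale the median share kept was 16.4%, against 25.8% over all peaks. The part of the control in the Kbu difference was not tested.

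**Figure D3:**
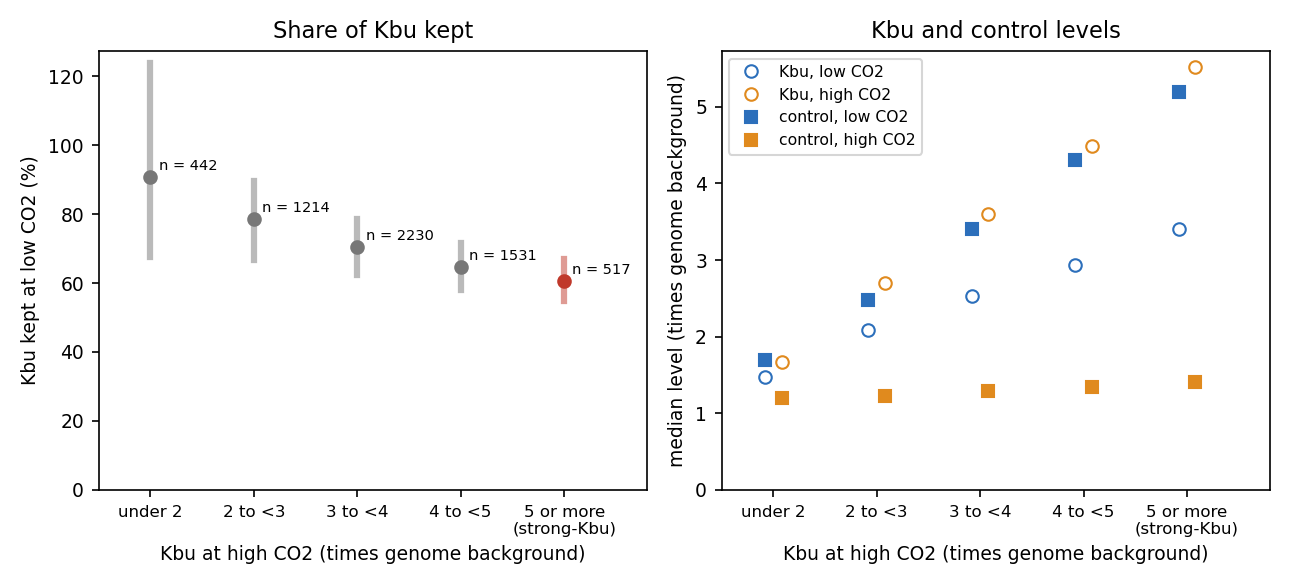
Left, median share of Kbu kept at low CO2 (points, bars are quartiles) for peaks under 1500 bp binned by their lower high-CO2 Kbu library, with the strong-Kbu peaks in red. Right, median Kbu level (circles) and control level (squares) at low CO2 (blue) and high CO2 (orange) in the same bins; the low-CO2 control goes up to 5.19 with the bins and the high-CO2 control stays between 1.20 and 1.40.

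In the authors' deposited table for Kbu, 88 of the 517 peaks have a status of higher at high CO2 and none of lower. The table gives these statuses to 2.93% and 15.6% of all peaks. Its test and this set share the high-CO2 values, so nothing is read from the counts. These statuses go with unadjusted p-values: the authors' deposited table gives an adjusted p for 137 of the 517, of which 1 is under 0.05. That peak is higher at high CO2. Over all peaks the same table gives an adjusted p for 2468. Of these, 1 is under 0.05 and higher at high CO2, and 623 are under 0.05 and lower at high CO2. In the authors' deposited table for H3K9me2 none of the 517 has a status of lower at high CO2, against 7.73% of all peaks.

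The highest Kbu level of the set belonged to peak596 (chromosome 11, 103498 to 104680), with 5.26 and 6.51 at low CO2 and 11.4 and 11.5 at high CO2. It kept 51.5%. The next was peak4057 (chromosome 29, 579848 to 580964), with 7.40 and 6.49 at low CO2 and 10.3 and 10.1 at high CO2. These 2 were the only peaks of the set above 10 times the background in both high-CO2 libraries. The other 3 of the top 5 were peak2820 (chromosome 20, 367724 to 369009), peak6043 (chromosome 9, 553287 to 554273) and peak1740 (chromosome 16, 354883 to 356142). They kept 53.7%, 66.9% and 66.0% of mean levels of 8.78, 8.07 and 7.90 at high CO2.

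At the edge of the rule, peak1841 (chromosome 16, 762044 to 763047) was inside with 5.06 and 5.00 at high CO2. Also just inside were peak2493 (chromosome 2, 558147 to 559356) with 5.03 and 5.00 and peak836 (chromosome 12, 124102 to 125393) with 5.00 and 5.06. Just outside, peak2090 (chromosome 18, 227676 to 228662) had 4.997 and 5.18, peak5366 (chromosome 6, 1279725 to 1280473) 4.997 and 5.24, and peak136 (chromosome 1, 673871 to 675050) 5.29 and 4.99. The 3 inside kept 51.9% to 61.5% and the 3 outside 63.1% to 75.1%.

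Retention varied around its median, with few peaks far from it. Of the 517 peaks, 53 kept under 50%, 441 kept 50% to under 80% and 23 kept 80% or more. The share kept had almost no relation to width across the set (Pearson 0.031). The lowest share was at peak215 (chromosome 1, 1036123 to 1037370), with a Kbu level of 2.18 and 1.86 at low CO2 and 5.74 and 5.62 at high CO2, 35.6% kept. The next lowest were peak2039 (chromosome 17, 810406 to 811488), peak4762 (chromosome 4, 1368308 to 1369422), peak1290 (chromosome 14, 91156 to 92188) and peak3952 (chromosome 29, 50371 to 51709), which kept 37.3% to 40.4%.

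At the other end, peak4617 (chromosome 4, 715853 to 717350) had 5.96 and 5.52 at low CO2 and 5.20 and 5.11 at high CO2, 111% of its high-CO2 level. At peak1758 (chromosome 16, 423989 to 425231) the values were 5.69 and 5.72 at low CO2 and 5.04 and 5.44 at high CO2. These were the 2 peaks whose low-CO2 libraries both lay above both high-CO2 libraries. The groups overlapped at peak3586 (chromosome 25, 567413 to 568832), peak1234 (chromosome 13, 797075 to 798234) and peak1896 (chromosome 17, 110296 to 111727), where low-CO2 levels were 102% to 104% of the high-CO2 levels.

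H3K9me2 was low at strong-Kbu peaks at both CO2 levels. Its median level was 1.61 and 1.78 at low CO2 and 1.40 and 1.49 at high CO2. At the other peaks it was 1.50 and 1.65 at low CO2 and 1.35 and 1.44 at high CO2. In each of the 4 libraries the strong-Kbu peaks thus stood slightly above the rest, by a factor of 1.07 and 1.08 at low CO2 and 1.04 and 1.03 at high CO2. Replicates differed by more than this in level, but a shift of a whole library does not enter these factors. The difference from the rest is small and was not tested. An H3K9me2 level of 2 or more in each library was found at 34 of the 517 peaks (6.58%) at low CO2 and at 0 at high CO2. Over all peaks these counts were 317 (5.13%) and 10.

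The H3K9me2 level rose at low CO2 at 29 of the 517 strong-Kbu peaks and fell at none (limma over all 6185 peaks, p adjusted by Benjamini-Hochberg, threshold 0.05, 2 libraries a group). Over all peaks 4.92% rose and 0% fell, so the share of 5.61% was near the background. At an unadjusted p under 0.05, 119 strong-Kbu peaks (23.0%) were higher and 0 lower, against 1158 (18.7%) and 21 of all peaks. Both low-CO2 libraries lay above both high-CO2 libraries at 281 of the 517 peaks, against 45.9% of all peaks, and below both at 10, against 3.78%. The median log2 difference was 0.21 over the set and 0.18 over all peaks. With any 1 of the 4 libraries left out, all 29 changes stayed positive. Each such fit leaves 1 group with a single library, so it cannot show whether the calls hold. On the authors' normalised ratio to control the split turned, with 4 of the 517 higher and 211 lower, against 24.5% and 12.1% of all peaks. Of the 29, 2 rose and 4 fell there. On the pileup over the control at the peak all 29 fell, as did all 517 and 5757 of all 6185 peaks.

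The rise with the largest log2 change was at peak1758, whose H3K9me2 level was 2.76 and 3.86 at low CO2 and 1.17 and 1.59 at high CO2. The change on the log2(level + 0.1) scale was 1.20 (SE 0.19, limma adjusted p = 0.00060). At peak3586 it was 2.60 and 2.90 at low CO2 and 1.40 and 1.24 at high CO2, a log2 change of 1.01 (SE 0.17). At peak35 (chromosome 1, 212734 to 213653) it was 2.71 and 3.29 at low CO2 and 1.37 and 1.59 at high CO2, a log2 change of 0.97. At all 3 the groups were apart. The other 2 of the top 5 were peak1896 (0.88) and peak3836 (chromosome 28, 195 to 1362), with 0.87. Without any 1 library the log2 changes of these 5 stayed between 0.81 and 1.43. On the authors' normalised ratio the log2 changes of peak35 and peak3836 were 0.56 and 0.57, and both passed. There the changes of peak1758 and peak3586 were 0.32 and 0.05 without passing, and peak1896 turned to -0.61, which passed as a fall. The same peaks lead the order by level, since peak1758, peak35 and peak3586 had the highest H3K9me2 at low CO2, followed by peak385 (chromosome 10, 243857 to 244856) and peak1477 (chromosome 15, 321 to 1077), with means of 2.72 ± 0.11 and 2.67 ± 0.15 (SD, n = 2 each).

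Strong-Kbu peaks that kept most Kbu also had more H3K9me2 at low CO2. The 23 peaks that kept 80% or more had a median H3K9me2 level of 2.14 at low CO2 and 1.38 at high CO2. The 53 that kept under 50% had 1.64 at low CO2 and 1.43 at high CO2. H3K9me2 rose at 9 of the 23 and at none of the 53 (22 of the 23 and 20 of the 53 had both low-CO2 libraries above both high-CO2 libraries). Over all peaks 4.92% rose and 45.9% had the libraries apart in this way. With any 1 library left out all 9 changes stayed positive, though such fits cannot show whether the calls hold. All 9 fell on the pileup over the control at the peak, as did 5757 of all 6185 peaks. The 5 peaks with the highest share kept are among the 9. On the authors' normalised ratio their log2 changes were 0.32 (peak1758), 0.05 (peak3586), -0.17 (peak4617), -0.35 (peak1234) and -0.61 (peak1896). Of these only peak1896 passed there, as a fall. At the 29 peaks where H3K9me2 rose the median share of Kbu kept was 72.8%. Across the 517 peaks, the share kept and the H3K9me2 log2 difference correlated at 0.434 (Pearson) and 0.273 (Spearman), and over all peaks at 0.377 and 0.252. The low-CO2 control had a median of 6.26 at the 23 peaks, 5.17 at the 53 and 6.57 at the 29, against 5.19 over the whole set. Across the set this control correlated with the share kept at 0.205 and with the H3K9me2 log2 difference at 0.356 (Pearson). Over all peaks it correlated with them at -0.202 and 0.234. Its part in this pattern was not tested.

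**Figure D4:**
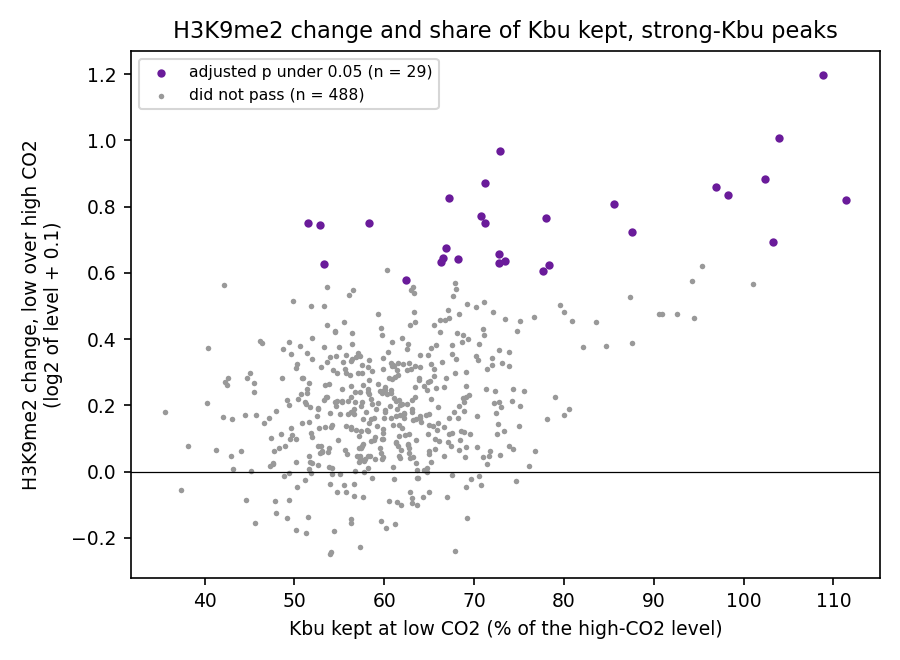
H3K9me2 change, low over high CO2 (log2 of level + 0.1, vertical axis) against the share of Kbu kept at low CO2 (horizontal axis) for the 517 strong-Kbu peaks; purple marks the 29 with an adjusted p under 0.05. The 23 peaks that kept 80% or more of their Kbu are all above 0.

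At low CO2 Kbu was above H3K9me2 at nearly the whole set on the pileup over genome background. In the low-CO2 libraries, which had no part in the choice of peaks, the Kbu level was higher than the H3K9me2 level at 513 of the 517 peaks and lower at 0 (limma over all peaks, adjusted p under 0.05, 2 libraries a group; 0 lower at an unadjusted p under 0.05). Over all peaks 80.5% were higher and 2.59% lower. Mean Kbu levels at low and high CO2 correlated at 0.670 over all peaks (Pearson), so the count follows in part from choosing peaks for high Kbu. Measured over the control at the peak, both marks stood under it at low CO2, Kbu at 0.670 and H3K9me2 at 0.324 (means of the library medians over the set). The marks were pulled down with different antibodies, and how well each worked was not measured. The median log2 difference was 0.99 over the set and 0.66 over all peaks. The 4 that did not pass, all named after their values were seen except peak215 and peak4762, were peak65 (chromosome 1, 360068 to 361560), peak144 (chromosome 1, 706170 to 707516), peak215 and peak4762. At peak144 Kbu was at 2.75 and 3.18 and H3K9me2 at 2.30 and 2.69. At peak215 Kbu was at 2.18 and 1.86 and H3K9me2 at 1.58 and 1.78. With libraries scaled to equal geometric means 325 of the 517 were higher and 4 lower, against 1318 and 1031 of all 6185 peaks. On the authors' normalised value 124 were higher, against 5.37% of all peaks, and 3 lower, against 1320 of all peaks.

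The median width of strong-Kbu peaks was 1164 bp (621 to 1497 bp), against 994 bp for the other peaks under 1500 bp. They made up 0% of peaks under 600 bp, 1.95% from 600 to under 800 bp, 13.6% from 1100 to under 1200 bp, 21.8% from 1200 to under 1300 bp and 18.4% from 1300 to under 1500 bp. The 81 peaks of 1500 bp or more with the same Kbu level kept 70.8% of it at low CO2, with a median H3K9me2 level of 2.22 at low CO2 and 1.53 at high CO2.

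The set was spread over all 30 chromosomes. Its share of a chromosome's peaks went from 5.28% on chromosome 8 (14 of 265) and 5.33% on chromosome 30 (4 of 75) to 13.9% on chromosome 20 (23 of 165) and 14.2% on chromosome 29 (16 of 113). Chromosome 4 held the most, 38 of 316 peaks, and chromosome 2, with the most peaks of all, held 21 of 376. The median share of Kbu kept by the strong-Kbu peaks lay between 55.1% on chromosome 28 and 66.0% on chromosome 16, and below that of all peaks on each of the 30 chromosomes. Since the set was chosen for a high level at high CO2, which divides the share, this order draws on the values the rule used.

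**Figure D5:**
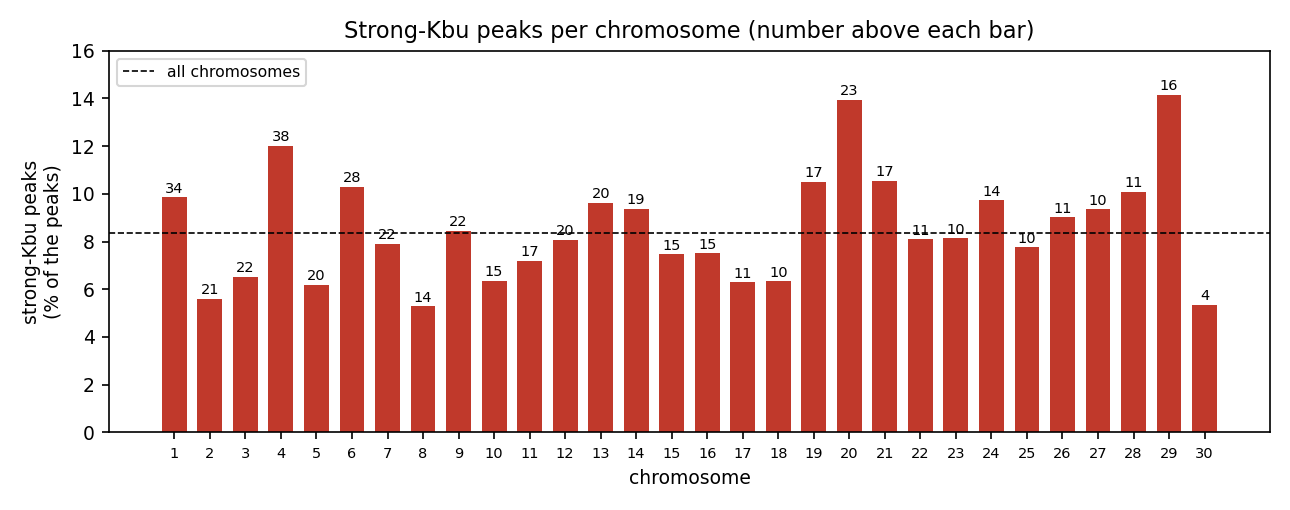
Strong-Kbu peaks as a percentage of all peaks on each of the 30 chromosomes (bars, number of strong-Kbu peaks above each bar). The dashed line is the share over all chromosomes, 8.36%; chromosomes 20 and 29 stand at 13.9% and 14.2% and chromosomes 8 and 30 at 5.28% and 5.33%.

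Along a chromosome, strong-Kbu peaks were next to a strong-Kbu peak slightly less often than other peaks were. Of the 517, 448 had no other strong-Kbu peak as a neighbour and 69 (13.3%) had at least 1, while 914 of the 5668 other peaks (16.1%) were next to a strong-Kbu peak. Among the neighbours of strong-Kbu peaks 7.05% were strong-Kbu peaks, against 8.41% among the neighbours of other peaks. There were 31 runs of 2 consecutive strong-Kbu peaks, 1 run of 3 and 1 of 4. The run of 4 was peak120 (602514 to 603966), peak121 (604764 to 606009), peak122 (614267 to 615503) and peak123 (615936 to 616953) on chromosome 1. All 4 were under 7 times the background at high CO2, and they kept 50.7% to 71.5%. Consecutive strong-Kbu peaks were a median of 38839 bp apart, and at most 292582 bp, on chromosome 3. The gap to the nearest peak of any kind was 2101 bp at the median, close to the 2033 bp of the other peaks.

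The outermost position on a chromosome was often a strong-Kbu peak. Of the 60 peaks that are the first or the last on a chromosome, 13 (21.7%) were strong-Kbu peaks, against 8.36% of all peaks. This was noticed in the data and was not tested. Among the 5 outermost peaks at each end 27 of 300 (9.0%) were strong-Kbu peaks. Ends are those of the peak lists, since chromosome lengths were not used here. At the 13 end peaks the median Kbu level was 5.01 at low CO2 and 6.05 at high CO2, and the median share kept was 71.3%, against 60.3% at the 490 strong-Kbu peaks farther in than the 5 outermost. H3K9me2 rose at low CO2 at 7 of the 13 (limma, adjusted p under 0.05), against 4.92% of all peaks, with a median level of 2.14 at low CO2 and 1.41 at high CO2. With any 1 library left out all 7 changes stayed positive, though such fits cannot show whether the calls hold. On the authors' normalised ratio 1 of the 7, peak3836, passed as a rise, and 2 had a negative change. All 7 fell on the pileup over the control at the peak, as did 5757 of all 6185 peaks. The low-CO2 control had a median of 5.36 at these 13 peaks, against 5.19 over the whole set. The peak with the second highest Kbu of the set, peak4057, was the last on chromosome 29, and peak1477 and peak3836 were the first on chromosomes 15 and 28. At peak581 (chromosome 10, 1243019 to 1243980), picked after its values were seen, Kbu was 6.96 and 5.76 at low CO2 and 6.65 and 6.31 at high CO2. The other 46 end peaks under 1500 bp kept a median of 74.1% of their Kbu, with a median level of 1.96 at low CO2 and 3.01 at high CO2. Their median H3K9me2 level was 1.75 at low CO2 and 1.37 at high CO2, and 8 of them rose.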

How the data were processed

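ChIP-seq libraries of Kbu and H3K9me2 (8 in all, 2 per mark and CO2 level) were sequenced as single-end Illumina reads, per the labels' protocols. Tools listed in the submitters' processing notes are BWA, MACS2, Trim Galore, deepTools and Picard. Their versions and settings, and the genome build, were not given in the sources used here. Per peak and library, the authors deposited 3 signals: the pileup, a control background named lambda per the file headers, and a normalised ratio of these. They also deposited, per the file headers, a log2 fold change, a test statistic (score), a p-value and an adjusted p-value for each comparison of CO2 levels. Both tables hold the same peaks, and 29 of 35 columns are identical. Each library's pileups came in whole multiples of a single step (within 0.05 of a whole number in 100% of peaks), which gave reads at a peak but no library depth. None of the columns is a count per peak, so no count test was run.

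Levels are pileup over the lowest control value of the library, which is assumed to be its genome background. Low against high CO2 for H3K9me2, and Kbu against H3K9me2 at low CO2, were tested with limma 3.58.1 in R 4.3.3 (mean trend, two-sided, Benjamini-Hochberg over all 6185 peaks, threshold 0.05) on log2(level + 0.1), using the 4 libraries concerned and no filter. The test was checked on simulated data, with noise drawn from the replicate spread of all peaks together. Such a check cannot show how well the calls hold where the spread differs from peak to peak. With 2 libraries per group an exact permutation test cannot go below p = 0.333. The members, lists and tests were chosen with earlier results of these data known. Named peaks are the top 5 by Kbu, by share kept (both ends), by H3K9me2 and by H3K9me2 change, 3 on each side of the threshold, and the longest run. Alternatives were other scales, pseudocounts of 0.01 and 1, leaving out the lowest 25% of peaks, a stricter adjusted p (0.01), leaving out single libraries, a replicate block and other member rules. Other steps used Python 3.11.15, pandas 2.3.3, NumPy 2.4.6, SciPy 1.17.1 and Matplotlib 3.10.9.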

Additional observations from a re-analysis of the deposited data

Results flagged for a closer look

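On the pileup over genome background the marks differed in direction at the strong-Kbu peaks. In both low-CO2 libraries the median H3K9me2 level was above both high-CO2 libraries, with a median log2 difference of 0.21 (0.18 over all peaks), while the median Kbu level was below both, with 60.7% kept (69.3% over all peaks). For H3K9me2 the difference was 0.013 with libraries scaled to equal geometric means, and it turned to -0.41 on the authors' normalised value and to -1.70 on the pileup over the control at the peak, so on these ratios both marks were lower at low CO2. This difference between the marks was not tested, because the high-CO2 Kbu values chose the peaks. The control background, which is not a measurement of either mark, had a median of 5.19 at these peaks at low CO2, in multiples of its lowest value, against 1.40 at high CO2. No group has enough libraries for a search for outlying samples.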

How the results depend on the processing

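The 29 H3K9me2 gains (5.61% of the strong-Kbu peaks) were the least stable result. On the authors' normalised value the share of gains was 0.774%, against 24.5% of all peaks. On the pileup over the control at the peak it was 0%, against 85 of all 6185 peaks. Without the lowest 25% of peaks it was 8.81%, against 368 of 4638 peaks. At an adjusted p under 0.01 it was 2.51%, against 132 of 6185 peaks. With members at 6 times the background it was 11.2% and with no width limit 10.2%, against 4.92% of all peaks. Leaving out 1 library left a group with a single library, so no share is given there. Losses were 40.8% on the normalised value, against 12.1% of all peaks. They were 100% on the pileup over the control, against 5757 of all 6185 peaks. The median log2 difference was 0.013 with libraries scaled to equal geometric means, -0.41 on the normalised value and -1.70 on the pileup over the control. These ratios divide by the control, whose median at these peaks was 5.19 at low CO2 and 1.40 at high CO2, and equal geometric means lower the H3K9me2 difference of all peaks by 0.20, which leaves them a median of -0.02.

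With the replicate number as a block 18.8% of the strong-Kbu peaks rose, all 29 among them, against 912 of all 6185 peaks. The labels do not say what the numbers share, and deviations of same-numbered libraries correlated at 0.042 (H3K9me2 at low and high CO2) and 0.044 (Kbu and H3K9me2 at low CO2). The block left the count of 513 peaks with Kbu above H3K9me2 as it was.

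With equal geometric means Kbu was above H3K9me2 at low CO2 at 62.9% of the strong-Kbu peaks and below at 0.774%. Over all 6185 peaks these counts were 1318 and 1031. On the normalised value Kbu was above at 24.0%, against 5.37% of all peaks, and below at 0.580%, against 1320 of 6185. With no width limit Kbu was below at 0.334%, against 2.59% of all peaks. The median share of Kbu kept was 86.1% with equal geometric means, 66.6% on the normalised value and 16.4% on the pileup over the control. Over all peaks it was 98.3%, 106% and 25.8% on these scales. With members at 4 and 6 times the background it was 63.4% and 58.5%, and with 1 library left out 59.6% to 61.0%. Members next to another member were 56.3% at 4 times and 4.49% at 6 times. There the set has 2048 and 89 of the 6185 peaks, and the size of the set itself moves this share. The share of end peaks over that of all peaks was 2.59, and 1.36 and 6.95 under these rules. The pileup over the control and the values for end peaks and for peaks chosen by a single library were added after seeing the data. Reads per peak were fewest for H3K9me2.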
